A study of Mus musculus with 2 samples.

Results

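The 6 peripheral glia genes Mbp, Mag, Pmp22, Sox10, Fabp7 and Npy were followed in mouse nasal mucosa treated with papain or with the vehicle, phosphate-buffered saline (PBS). They were taken by gene symbol in the annotation of the array, and all 6 of 6 were found among 22184 named genes. Each had 1 probe set (a set of oligonucleotides that reads 1 transcript cluster) that carried its name alone, so no choice between probe sets was needed. Papain is a cysteine protease from papaya that provokes allergic airway inflammation in mice. Total RNA of nasal mucosa from C57BL/6 mice aged 4 to 6 weeks was hybridised to 1 Affymetrix Mouse Gene 2.0 ST array for papain and 1 array for PBS, both labelled 3 days. According to the design text 4 samples were combined into a specimen, so the spread between animals was not measured. With 1 array per group no test was possible, and no difference below has a replicate check. Values are log2 signals as the authors deposited them, and each ratio is papain minus PBS on that scale.

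Glia of the nasal mucosa are of more than a single kind. The axons of olfactory and vomeronasal neurons carry no myelin and run in bundles wrapped by olfactory ensheathing glia, while the trigeminal and autonomic nerves of the lamina propria are wrapped by Schwann cells, some of which form myelin. Both glial types arise from the neural crest and depend on the transcription factor SOX10. Mbp, Mag and Pmp22 encode myelin proteins, and Fabp7 and Npy are known from olfactory ensheathing glia. Some of them are also made outside glia: Sox10 is active in melanocytes and gland epithelium, Pmp22 in fibroblasts and epithelia, and Npy in sympathetic neurons.

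The start regions of 3 of the genes are shown because 1 probe set value stands for all transcripts of a gene, whichever start they use. RefSeq promoter windows on GRCm38.p6, each 250 bases before to 50 bases after a start, were found for 4 of the 6 genes: Pmp22 had 4 windows, Mag 3, and Fabp7 and Npy 1 each. Windows 1, 2 and 4 of Pmp22, the gene with the lowest ratio, are printed with those of Fabp7, the gene read furthest above background, and Npy. Capitals mark every GC box (GGGCGG or its reverse complement CCGCCC) and every CCAAT box (CCAAT or ATTGG). All sequences run 5′ to 3′ along the strand of the gene, which is the plus strand for these 3 genes.
Pmp22 window 1, chr11:63128732-63129031: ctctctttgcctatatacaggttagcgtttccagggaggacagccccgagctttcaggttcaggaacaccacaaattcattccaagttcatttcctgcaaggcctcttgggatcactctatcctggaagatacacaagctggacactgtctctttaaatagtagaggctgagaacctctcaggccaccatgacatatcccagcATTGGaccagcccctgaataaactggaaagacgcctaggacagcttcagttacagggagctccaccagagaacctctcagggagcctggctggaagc
Pmp22 window 2, chr11:63131207-63131506: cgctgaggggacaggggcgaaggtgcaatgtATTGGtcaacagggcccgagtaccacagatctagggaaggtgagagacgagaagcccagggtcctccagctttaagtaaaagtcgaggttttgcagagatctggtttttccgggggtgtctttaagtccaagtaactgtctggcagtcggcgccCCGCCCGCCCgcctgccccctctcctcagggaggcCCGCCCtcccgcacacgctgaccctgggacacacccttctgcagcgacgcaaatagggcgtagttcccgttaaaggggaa
Pmp22 window 4, chr11:63132553-63132852: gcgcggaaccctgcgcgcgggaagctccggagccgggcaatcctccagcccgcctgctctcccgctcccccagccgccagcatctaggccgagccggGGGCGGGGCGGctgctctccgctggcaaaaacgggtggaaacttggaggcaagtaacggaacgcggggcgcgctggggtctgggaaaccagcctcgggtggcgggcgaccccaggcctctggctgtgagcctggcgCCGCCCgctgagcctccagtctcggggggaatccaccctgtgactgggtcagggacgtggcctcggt
Fabp7, chr10:57784673-57784972: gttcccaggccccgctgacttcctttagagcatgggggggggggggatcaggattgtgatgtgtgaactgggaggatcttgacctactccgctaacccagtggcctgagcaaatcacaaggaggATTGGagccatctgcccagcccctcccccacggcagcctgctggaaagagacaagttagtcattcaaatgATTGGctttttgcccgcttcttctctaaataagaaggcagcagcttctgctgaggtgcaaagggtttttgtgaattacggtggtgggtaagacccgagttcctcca
Npy, chr6:49822460-49822759: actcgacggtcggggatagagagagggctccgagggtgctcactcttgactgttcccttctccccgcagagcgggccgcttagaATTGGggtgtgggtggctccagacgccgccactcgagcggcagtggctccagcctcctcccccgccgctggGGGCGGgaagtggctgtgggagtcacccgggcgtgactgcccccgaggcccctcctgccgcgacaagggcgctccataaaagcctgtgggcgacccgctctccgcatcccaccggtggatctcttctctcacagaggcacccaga
The starts of Pmp22 differed in base composition, with 50.7% G and C and 3 CpG dinucleotides in window 1, against 72.3% and 30 in window 4. The median over all 32851 windows of the table was 52.7% G and C. A GC box occurred in 35.7% of all windows and a CCAAT box in 37.4%, on either strand. The SOX core ACAAAG, searched on both strands, was absent from these 5 windows and present once near the starts of Mag, inside 2 of its 3 windows that overlap each other, against 18.7% of all windows. The other SOX core searched, ACAATG, and the TATA box core TATAAA were found in none of the 9 windows of the 4 genes, against 12.6% and 13.6% of all windows. These matches describe letters in a window and say nothing about binding.

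Signals were read against 36 genes of other tissues, such as pituitary hormones and pancreatic enzymes, whose median was 4.90 on the papain array and 4.97 on the PBS array. Their 95th percentiles were 6.35 and 6.21 on those arrays, values that rest on the few brightest of these 36 genes. Of 22184 named genes, 10464 were above the 95th percentile on both arrays. The off-tissue genes themselves had a median ratio of 0.13, with 25 of 36 above 0, and an SD of 0.39, which bears on members with signals as dim as theirs. Named genes had a median ratio of -0.03, and 45.6% of them had a ratio above 0. Those whose higher signal reached the median of all named genes, 6.29, had a median ratio of -0.10. The SD of 1 probe set's ratio, taken from 1082 genes with repeated probe sets, was 0.32. That SD covers the error of probe sets alone and leaves out variation between animals.

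No member differed by 2-fold between the arrays. The 6 ratios ran from -0.52 for Pmp22 to 0.32 for Mag with a median of 0.01, and 3 lay above 0 and 3 below. None of 6 reached 2-fold, where 2.56% of all named genes did, and none reached 1.5-fold, where 9.71% did. Pmp22 and Sox10 were lower in the papain array by more than 1 SD of probe set error, where 17.1% of all named genes were lower by that much. No member was higher by more than 1 SD, where 14.5% of named genes were, though Mag at 0.32 lay just inside it. No member was past 2 SD in either direction.

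**Figure D1:**
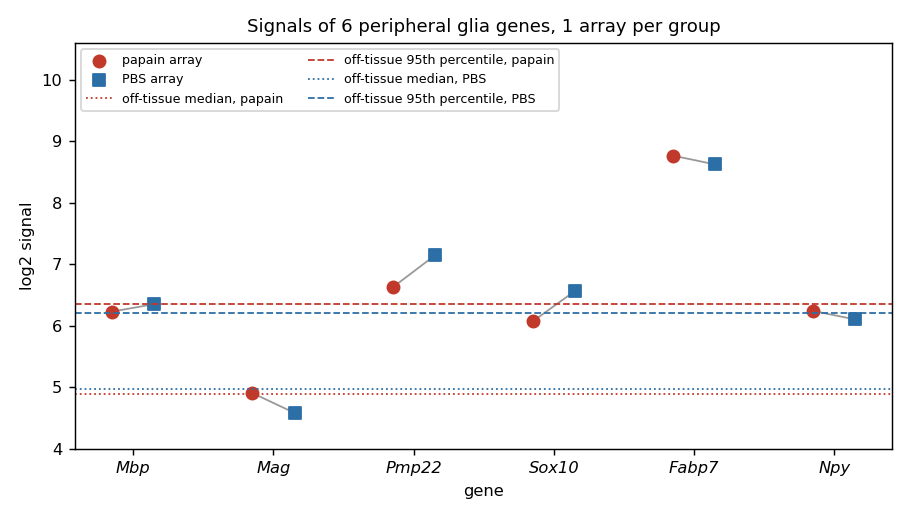
Log2 signal (vertical axis) of each of the 6 genes on the papain array (red circles) and the PBS array (blue squares), 1 array each, with the median (dotted) and 95th percentile (dashed) of 36 off-tissue genes on each array. Fabp7 and Pmp22 lie above the 95th percentile on both arrays, Mbp and Sox10 on the PBS array alone, Npy just under it on both, and Mag near the off-tissue median.

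Of the 3 myelin protein genes, Pmp22 and Mbp had ratios below 0 and Mag was at background. Pmp22, a tetraspan protein of compact peripheral myelin, read 6.62 on the papain array and 7.14 on the PBS array, a ratio of -0.52 or 0.698-fold. Both signals were above the off-tissue 95th percentile, though 2 off-tissue genes were brighter on the papain array and 1 on the PBS array. The ratio was -1.60 times the probe set SD, and 6.18% of named genes had a lower ratio. Mbp, whose product holds the cytoplasmic faces of the myelin membrane together, read 6.23 after papain and 6.35 after PBS, a ratio of -0.12 or 0.920-fold. That ratio was -0.37 times the probe set SD, and 38.6% of named genes had a lower ratio. Mag encodes an adhesion protein of the membrane that faces the axon, and read 4.91 after papain and 4.58 after PBS. Its papain signal was at the off-tissue median and its PBS signal was under it, with 18 and 27 of the 36 off-tissue genes brighter on those arrays. The Mag ratio of 0.32 compares signals at background and gives no fold in transcript.

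Sox10, the transcription factor gene of neural crest glia, read 6.07 on the papain array and 6.56 on the PBS array. The ratio was -0.49 or 0.712-fold, which is -1.51 times the probe set SD, and 7.30% of named genes had a lower ratio. Its papain signal was under the off-tissue 95th percentile and its PBS signal above, so the size of this difference is uncertain. After each array's off-tissue median had been subtracted on the linear scale, the ratio of Sox10 was -0.75 and that of Pmp22 was -0.68, both still short of 2-fold. In RNA from whole mucosa, fewer cells of a type and less RNA per cell cannot be told apart.

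Fabp7 and Npy, the genes of olfactory ensheathing glia, read slightly higher after papain, by less than the error of a probe set. Fabp7, a fatty acid binding protein of radial and ensheathing glia, read 8.76 on the papain array and 8.62 on the PBS array, a ratio of 0.14 or 1.10-fold. It was the member furthest above background, with none of the 36 off-tissue genes brighter on either array, and 64.5% of named genes had a ratio of larger size. Npy, the gene of neuropeptide Y, read 6.24 after papain and 6.10 after PBS, a ratio of 0.14. In each array 3 off-tissue genes were brighter than Npy, and its signals lay just under their 95th percentile. The ratios were 0.44 times the probe set SD for Fabp7 and 0.42 times for Npy.

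**Figure D2:**
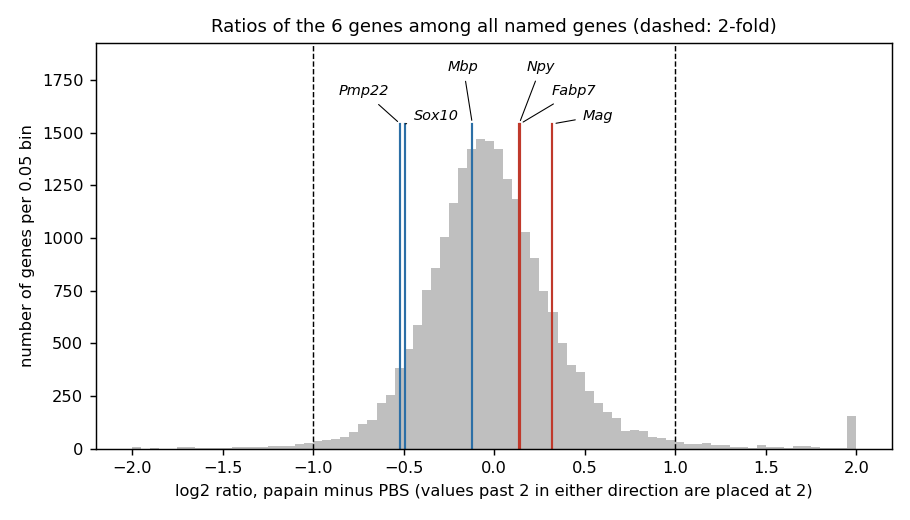
Number of genes per bin of 0.05 (vertical axis) by log2 ratio, papain minus PBS (horizontal axis), over 22184 named genes, with the 6 glia genes as lines, red above 0 and blue below, and 2-fold dashed. All 6 lie between the dashed lines, with Pmp22 at -0.52 and Sox10 at -0.49 the furthest from 0.

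Sox10 belongs with Sox8 and Sox9 to the SoxE genes, and all 3 had ratios below 0. Sox9, a transcription factor of cartilage and epithelial progenitors, read 8.27 after papain and 8.46 after PBS, a ratio of -0.18. Sox8 read 5.54 after papain and 5.73 after PBS, a ratio of -0.19, inside the range of the off-tissue genes. The ratio of Sox10 was thus the lowest of the 3, and none reached 1.5-fold.

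Pmp22 shares a family with the epithelial membrane proteins, and 4 of its 5 members had ratios below 0, with a median of -0.31. Emp2 read 8.80 on the papain array and 9.32 on the PBS array, a ratio of -0.51 close to that of Pmp22. Emp3 had a ratio of -0.31 and Emp1 one of -0.26, at 10.15 after papain and 10.42 after PBS. Lim2, the lens member, had 0.18 at 5.22 and 5.04 on those arrays, inside the off-tissue range. None of the 5 reached 1.5-fold in either direction. Genes of fibroblasts, which also express Pmp22, read lower in the same array. The ratios of all 8 fibroblast markers were negative, with a median of -0.47, and their summed linear signal had a log2 ratio of -0.52. Among them Col1a2 had -0.78, Pdgfrb -0.62, Col1a1 -0.60 and Col6a1 -0.56. The part of fibroblasts in the Pmp22 difference was not tested.

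Npy was set beside the other genes of its system, which are peptides, receptors and the protease Dpp4. The exception among 9 measured genes was Npy1r, the receptor through which neuropeptide Y constricts vessels, which read 5.12 on the papain array and 6.46 on the PBS array. Its ratio of -1.35 was the only one of the 9 past 2-fold, where 0.73% of named genes were lower by that much. The papain signal of Npy1r lay between the off-tissue median and 95th percentile, so the size of this fold is uncertain. The receptor genes Npy2r, Npy4r and Npy6r were under the off-tissue median on both arrays and had ratios of -0.28, 0.13 and 0.35, and Npy5r had 0.21. Of the related peptide genes, Ppy read 6.61 after papain and 6.31 after PBS, a ratio of 0.30, while Pyy, under the off-tissue median on both arrays, had 0.37. Dpp4, which cleaves neuropeptide Y, read 6.80 after papain and 6.81 after PBS. Sympathetic and autonomic neurons also make neuropeptide Y, and their part in the Npy signal was not tested. None of the 8 measured markers of these neurons was above the off-tissue 95th percentile on both arrays, and 2 were above the off-tissue median on both. Their median ratio was 0.23, with 5 above 0 and 3 below. Th, the enzyme of catecholamine synthesis, read 5.57 after papain and 5.40 after PBS. Vip had 0.99, with a PBS signal of 4.04 under the off-tissue median, so it gives no fold in transcript.

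**Figure D3:**
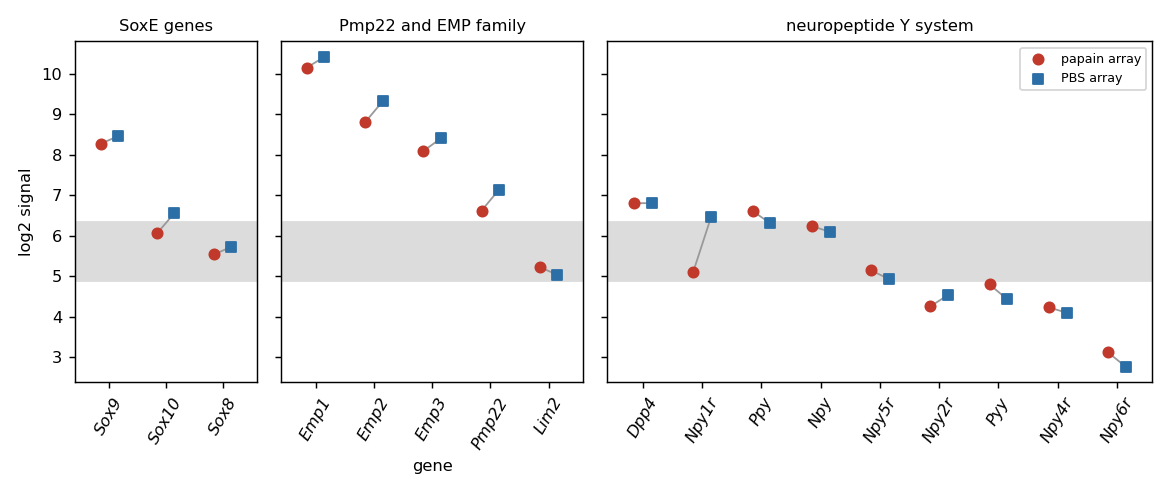
Log2 signal (vertical axis) of the SoxE genes, the Pmp22 and epithelial membrane protein family and the neuropeptide Y system on the papain array (red circles) and the PBS array (blue squares), 1 array each, with the span from the median to the 95th percentile of off-tissue genes on the papain array shaded. Npy1r, at 5.12 after papain and 6.46 after PBS, has the widest gap, and Pmp22 and Emp2 lie lower after papain by about the same amount.

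Fabp7 was also set beside 12 other lipid and retinoid binding proteins of its family. The 13 together had a median ratio of -0.08, with 5 above 0 and 8 below, and none reached 2-fold. Fabp4, the adipocyte member, read 4.91 on the papain array and 5.88 on the PBS array, a ratio of -0.97 whose papain signal was at the off-tissue median, so it gives no fold in transcript. Fabp3, the heart and muscle member, had -0.42, Rbp2 had -0.57, and Crabp2, a retinoic acid binding protein, had 0.30. Pmp2, the member of peripheral myelin, read 4.02 on both arrays, under the off-tissue median. Mag is also a member of the Siglec family of sialic acid binding proteins. Of 8 measured Siglec genes 5 had ratios above 0, Siglecg having 0.58, Siglecf 0.38 and Siglec1 -0.30, and 1 of 8, Cd33, was above the off-tissue 95th percentile on both arrays.

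Over 7 lists of glial genes, 74 of 83 genes were measured, with a median ratio of -0.02 beside -0.03 over all named genes. Of these 74, 34 were above 0 and 40 below, where 45.6% of named genes were above 0. Among the 74, 1 was at least 2-fold higher and none 2-fold lower, where 1.83% and 0.73% of named genes were. At 1.5-fold 2 were higher and 4 lower, where 5.38% and 4.34% of named genes were. Without the 6 members the median over the other 68 was also -0.02. The label of the list could be checked in part only. Of the 12 Schwann cell markers measured, 4 were above the off-tissue 95th percentile on both arrays, and of the 13 ensheathing glia markers 6 were. Among all 22184 named genes 10464 were, so these counts do not set the glial markers apart. Cdh19, a cadherin of Schwann cell precursors, read 5.26 after papain and 5.24 after PBS, and Gfap, an intermediate filament of non-myelinating and ensheathing glia, read 5.60 and 5.18 on those arrays.

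Among compact myelin genes and their partners at the node, 15 of 18 were measured, with a median of -0.11, 4 above 0 and 11 below, none past 1.5-fold. Gldn, the gene of gliomedin, which gathers sodium channels at nodes of peripheral nerve, read 6.79 on the papain array and 7.36 on the PBS array, a ratio of -0.57. Gjc3, a connexin of myelinating glia, had 0.43 with both signals under the off-tissue 95th percentile. Dusp15, a phosphatase gene, had 0.36, but its PBS signal of 4.77 was under the off-tissue median, so it gives no fold in transcript. The enzymes of myelin lipid and cholesterol synthesis had a median of 0.06 over 8 genes and none past 1.5-fold. Cyp51, a sterol demethylase, had 0.34, Fa2h, which hydroxylates the fatty acids of myelin lipids, 0.24, Gal3st1, the sulfatide synthase, 0.17, and Fdps, an enzyme of the cholesterol pathway, 0.07.

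The transcription factors of glia had a median of -0.16 over 11 genes, with 5 above 0 and 6 below. Tfap2a, a neural crest factor that epidermis also makes, read 6.84 on the papain array and 7.58 on the PBS array, a ratio of -0.73. It was the 1 of 11 factors past 1.5-fold, where 4.34% of named genes were lower by that much. Nab1 and Nab2, corepressors of EGR2, had -0.58 and -0.56, while Egr2 itself, the factor that drives myelin genes, had 0.40 at 6.07 after papain and 5.67 after PBS. Foxd3, a factor of early neural crest, had 0.54. Genes that Schwann cells switch on after nerve injury had a median of 0.03 over 11 genes, with Jun at -0.25, Ngfr at 0.31, Artn at 0.14 and Shh at -0.89. Shh was under the off-tissue median on the papain array.

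Of the receptors and ligands that glia use, 1 stood out. Ednrb, the endothelin receptor of neural crest cells and also of vessels and epithelium, read 7.86 on the papain array and 6.13 on the PBS array, a ratio of 1.74 or 3.33-fold. It was the 1 of 16 genes past 2-fold, where 1.83% of named genes were higher by that much, and its PBS signal was under the off-tissue 95th percentile. Erbb3, the neuregulin receptor of Schwann cells, read 9.16 after papain and 9.51 after PBS, a ratio of -0.36, in a gene that epithelium also uses. Lgi4, a ligand that Schwann cells secrete for myelination, had -0.66 with both signals under the off-tissue 95th percentile, so its size is uncertain. Gfra2 and Gfra1, coreceptors for the GDNF family, had -0.54 and -0.38. Ngfr, the neurotrophin receptor of immature Schwann and ensheathing glia, read 6.14 after papain and 5.84 after PBS, a ratio of 0.31.

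Among the markers of Schwann cells and of ensheathing glia, ratios lay on either side of 0. The median was 0.02 for Schwann cell markers, 7 above 0 and 5 below, and -0.07 for ensheathing glia markers, 6 above and 7 below. Among the 8 ensheathing glia markers whose higher signal reached 6.29 the median was -0.35, where that of all named genes was -0.10. S100b and Sox10 reached 6.29 on the PBS array alone, where they were higher. This median therefore partly reflects the floor and is not read as a drop. The summed linear signal of all 13 had a log2 ratio of -0.28. That sum is weighted toward its brightest gene, Sparc, which read 10.87 after papain and 11.31 after PBS. S100b, the calcium-binding protein of both glial types, read 6.28 on the papain array and 6.78 on the PBS array. Its ratio of -0.51 was close to that of Sox10. Scn7a, a sodium channel gene of non-myelinating Schwann cells, went the other way with 6.77 after papain and 5.89 after PBS, a ratio of 0.89. The papain signal of S100b and the PBS signal of Scn7a were under the off-tissue 95th percentile. Frzb, a secreted Wnt antagonist of ensheathing glia, had -0.67 at 5.38 after papain and 6.05 after PBS, both under the off-tissue 95th percentile, and Aqp1, a water channel that endothelium also makes, had -0.58.

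**Figure D4:**
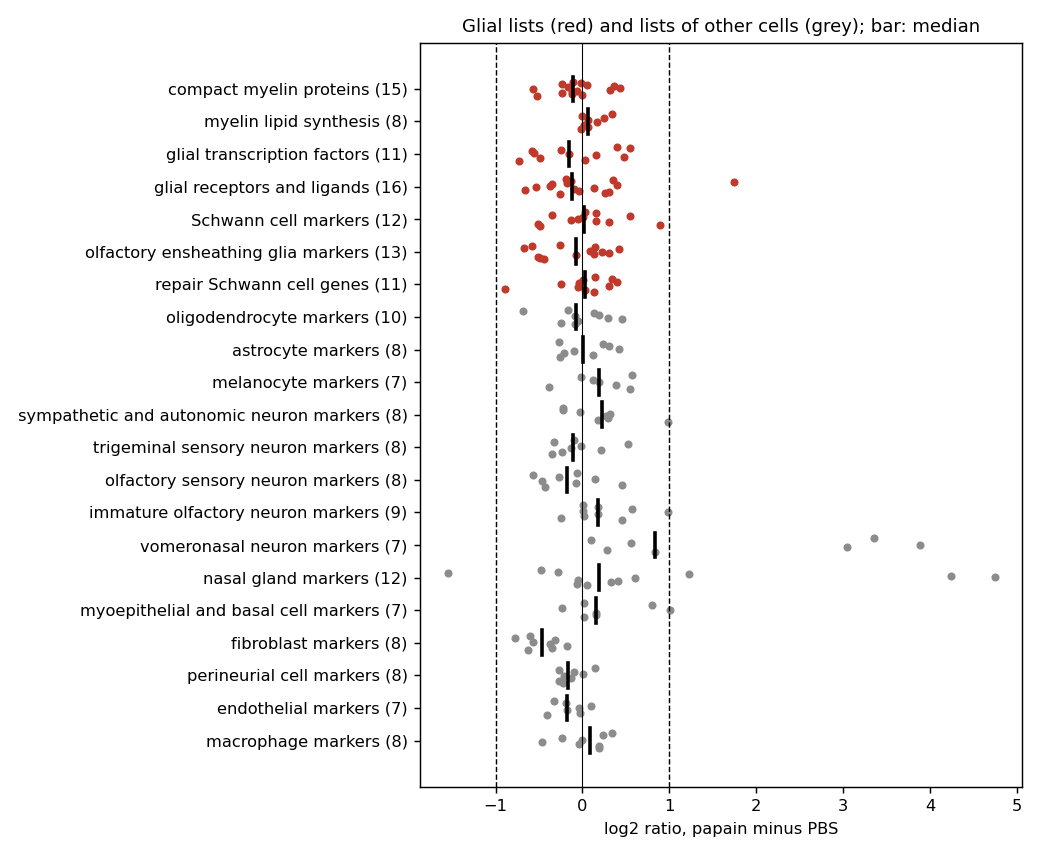
Log2 ratio, papain minus PBS (horizontal axis), of each measured gene (points) in 7 glial lists (red) and in lists of other cells (grey), with the median as a bar, 2-fold dashed and the number of measured genes in brackets. The medians of the glial lists lie between -0.16 and 0.06, that of fibroblast markers at -0.47 and that of vomeronasal neuron markers at 0.83.

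Markers of the neurons whose axons these glia wrap were read on the same arrays. Over 7 vomeronasal neuron markers the median was 0.83, all 7 above 0, with a log2 ratio of their summed linear signal of 0.51. H2-M1, Calr4 and H2-M10.5 were under the off-tissue median on the PBS array, at 3.31, 4.59 and 4.43, and without these 3 genes the median of the other 4 was 0.42. For olfactory sensory neurons the median was -0.18 over 8 markers, 2 of them above 0, and for trigeminal sensory neurons it was -0.11 over 8 markers, again with 2 above 0. Of the 8 trigeminal markers 4 were above the off-tissue median on both arrays, and the median of those 4 was also -0.11. The other trigeminal markers were at background. Immature olfactory neuron markers had 8 of 9 above 0 and a median of 0.18, with Gng8 at 0.99, and their summed linear signal had a log2 ratio of 0.40. Of these 9 genes 7 were above the off-tissue median on both arrays. With all probe sets of each gene averaged, the median over the 9 was 0.02, so its size depends on the probe sets taken. Genes of contact between axon and glia had a median of 0.07 over 12 genes. Cntn1, the gene of contactin, an axonal adhesion protein of the paranode, read 7.34 on the papain array and 5.91 on the PBS array. Its ratio of 1.42 was the only one of the 12 past 2-fold, where 1.83% of named genes were higher by that much. The PBS signal of Cntn1 was under the off-tissue 95th percentile, so the size of this fold is uncertain. Among the others Cadm3 had 0.51 and Lingo1, a component of a receptor for myelin inhibitors, had -0.44. The part of vomeronasal tissue in the Ednrb, Scn7a and Cntn1 differences was not tested.

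Markers of other cells that share genes with glia ranged in signal from near background to far above it, and their ratios were mixed. Of 10 oligodendrocyte markers 4 were above the off-tissue 95th percentile on both arrays, and their median ratio was -0.07. Mog and Mobp, defining genes of central myelin, read 5.53 and 5.46 after papain and 5.07 and 5.16 after PBS, inside the off-tissue range. Cldn11, which is also a gene of epithelia, had -0.68. Melanocyte markers, which share Sox10 with glia, had a median of 0.19 over 7 genes with most signals near background. The 1 of 7 above the off-tissue 95th percentile on both arrays, Mitf, had -0.02. Nasal gland markers, cells in which Sox10 is also active, ran from -1.55 for Bpifb3 to 4.74 for Bpifb9b, with a median of 0.19 over 12 genes and 0.06 over the 11 above the off-tissue median on both arrays. The 8 markers of perineurial cells ran from -0.28 to 0.15, and their median was -0.17. All 8 were above the off-tissue 95th percentile on both arrays. As 10464 of 22184 named genes were too, that level does not show perineurial cells in particular. The part of glands and melanocytes in the Sox10 difference was not tested.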

How the data were processed

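The authors deposited log2 signals per transcript cluster (the scale was read from the values). Per the submitters' processing notes, Transcriptome Analysis Console 4.0 was used. How background was corrected and arrays were normalized is not given in the sources used here, and a difference in total RNA between specimens would not show.

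Names were taken from 23525 of 41345 clusters, those with exactly 1 gene symbol in the annotation of the array. The brightest probe set by the mean of both arrays stood for a gene, which gave 22184 genes. There is no p-value, since a group is 1 array. Precision is limited by the number of arrays. The members and gene lists were chosen with earlier results of these data known, so no pattern here is independent evidence. Named genes were the 6 members, a set of partners, 3 families, and up to 4 genes per list with the largest ratio above the off-tissue median; lists of other cells are mostly given as medians. Cd33, Mitf, Pmp2 and Sparc fell outside this rule and were named after their values were seen, as was Acta2 below. Alternatives were quantile normalization, centring, loess of ratio on mean signal with span 0.3, averaging probe sets, background subtraction, other thresholds and a floor. Counting was tested on simulated data. Python 3.11.15, numpy 2.4.6, pandas 2.3.3, statsmodels 0.14.6 and matplotlib 3.10.9 were used.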

Additional observations from a re-analysis of the deposited data

How the results depend on the processing

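All 6 members kept the sign of their ratio under quantile normalization, centring, loess and background subtraction, which had no value for Mag. Averaging probe sets could not change them, since each member has 1. Pmp22 ranged from -0.68 to -0.41, Sox10 from -0.75 to -0.44, Mbp from -0.15 to -0.07, Fabp7 from 0.14 to 0.23, Npy from 0.11 to 0.29 and Mag from 0.23 to 0.36. No member reached 2-fold under these settings or with a floor at 6.29, which 4 members passed, and lowering the threshold to a log2 ratio of 0.32 gave 2. The median over all 6 members was -0.01 after quantile normalization and 0.05 after loess, so it has no settled direction. Over the 5 left by background subtraction it was -0.15. Of the 7 glial lists 4 had a median below 0 as deposited, 3 after loess and 6 among genes above the floor. Above that floor the median over all named genes was itself -0.10. Over 30 list medians 21 kept their sign in each alternative, and 9 did not, among them the Schwann cell, ensheathing glia and repair lists. The median of melanocyte markers was 0.70 over the 4 left by background subtraction, and the 1 above the floor had -0.02. Leaving out the 6 members, and keeping only genes above the off-tissue median on both arrays, were chosen after seeing the data. No paired analysis was possible because each group has 1 array, and for the same reason no replicate could be left out. The dim signals of Mag, Npy, Mbp and Sox10 limit what their ratios measure, and differences between animals were not measured.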

Other observations

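Genes of contractile cells in the myoepithelial and basal cell list did not share a size of ratio. Myh11, the smooth muscle myosin heavy chain, read 8.90 after papain and 7.89 after PBS, a ratio of 1.01, and Cnn1, the actin-binding protein calponin, read 8.03 and 7.24 on those arrays, a ratio of 0.79. Acta2, the smooth muscle actin gene, added here after seeing its value, had 0.02, Mylk, a myosin kinase gene, had 0.16, and the epithelial keratin gene Krt14 had -0.24. The list had a median of 0.16 over 7 genes, with 1 of them at least 2-fold higher. Of 7 endothelial markers 1 was above 0, and the median was -0.18, with Tie1 at -0.40 and Cdh5 at -0.33. Macrophage markers had 4 of 8 above 0, with Cd68 at -0.46 and Adgre1 at 0.33. Microvillar and tuft cells, some of which are also known to hold neuropeptide Y, had Gnat3 at 0.72, Foxi1 at -0.51 and Ascl3 at -0.41, and a median of -0.04 over 9 genes, which was 0.01 over the 8 above the off-tissue median on both arrays.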
